A study of Homo sapiens with 8 samples.

Results

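The cytosolic ribosomal proteins are the structural proteins of the ribosome that translates nuclear messenger RNAs. Their genes were taken from the deposited count table by name: an RPL, RPS or RPLP symbol followed by a number and, at most, one A or X, together with RPSA. Each gene also had to hold at least 100 reads over the 8 libraries. The rule returned 77 genes of the 25369 listed, 46 of the large subunit and 31 of the small subunit. All 77 had enough reads to be tested. The choice used gene names and total reads, and no difference between groups.

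The libraries are poly(A) RNA of the human neuroblastoma cell line CHP212 with FAM193A knocked out (KO) or unmodified (WT). Nutlin-3a is a small molecule that binds MDM2 and keeps it from p53, so p53 accumulates. The 4 groups were KO cells given 10 uM Nutlin-3a, KO cells given 0.2% DMSO, WT cells given 10 uM Nutlin-3a and WT cells given 0.2% DMSO, each for 12 h and each with 2 independent biological replicates. The labels name 1 KO population, so the loss of FAM193A cannot be told apart from any other property of that population, and p values between genotypes measure the spread between replicates and not between KO populations.

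Each ribosome carries a single copy of nearly every ribosomal protein, and the genes are accordingly transcribed at high and similar rates in most cells. Their mRNAs begin with a C followed by a run of pyrimidines, the terminal oligopyrimidine (TOP) motif, through which mTOR signalling and the RNA-binding protein LARP1 control their translation and stability. Some free ribosomal proteins also reach p53: RPL5 and RPL11, with the 5S ribosomal RNA, bind MDM2 and inhibit it when ribosome assembly is disturbed. Mutations in several members, RPS19 the best known, cause Diamond-Blackfan anaemia.

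The TOP motif was visible in the start sites of the members. RefSeq start windows (GRCh38.p14, 250 bases before to 50 bases after the annotated start) were at hand for 62 of the 77 genes, matched by symbol. A C at the annotated start followed by at least 4 pyrimidines stood in 42 of these 62 members (67.7%), against 5.19% of the 11210 tested genes with a window and 4.04% of all 27305 windows. Allowing the run to begin up to 5 bases from the annotated start, 50 of 62 members (80.6%) held one, against 22.8% of tested genes. Of the genes that the results turn on, 9 are given here with 10 bases before the annotated start and 20 bases from it onward, read 5′ to 3′ on the gene's strand, and with the pyrimidine run at or near the start in capitals.
RPS19, chr19:41860245-41860274, + strand: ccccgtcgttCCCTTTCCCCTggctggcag
RPL13A, chr19:49487598-49487627, + strand: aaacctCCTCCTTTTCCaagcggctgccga
RPL3, chr22:39319604-39319633, - strand: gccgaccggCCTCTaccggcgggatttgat
RPL11, chr1:23691769-23691798, + strand: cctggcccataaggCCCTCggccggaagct
RPL22, chr1:6199576-6199605, - strand: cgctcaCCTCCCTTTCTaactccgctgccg
RPLP0, chr12:120201092-120201121, - strand: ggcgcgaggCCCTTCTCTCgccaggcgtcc
RPS6, chr9:19380217-19380246, - strand: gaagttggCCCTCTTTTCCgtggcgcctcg
RPL21, chr13:27251548-27251577, + strand: ccgcctCTTTCCTTTCggccggaaccgcca
RPS26, chr12:56041908-56041937, + strand: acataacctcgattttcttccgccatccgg

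RPS19, RPL13A, RPL22 and RPS6 each carried a run of 11 pyrimidines. RPL3 and RPL11 carried runs of 5, and RPS26 held no run of 5 that began with C within 5 bases of its annotated start. The median run was 10 bases over the 62 members and 3 bases over the tested genes. Other motifs were searched on both strands of the 300-base windows. The ETS motif CCGGAAGT was in 14.5% of member windows, 7.94% of tested genes' windows and 4.44% of all windows. The YY1 motif ATGGCGGC was in 8.06%, 5.57% and 3.21% of the same windows, and the YY1 motif AAGATGGC in 9.68%, 4.92% and 3.03%. The E-box CACGTG, to which MYC and MYCN bind, was in 4.84% (3 members), 9.80% and 7.43%, and the TATA box TATAAA was in 8.06%, 6.23% and 12.0%. These matches describe the letters of the windows only.

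Library totals ran between 28390405 and 38010075 reads, and every member other than RPL21 held at least 48370 reads over the 8 libraries (RPS10). FAM193A itself stood at 42.0 and 38.1 CPM in KO Nutlin-3a, 34.8 and 32.2 in KO DMSO, 50.4 and 44.5 in WT Nutlin-3a and 44.1 and 39.96 in WT DMSO libraries, where CPM are reads scaled to library depth. It was lower in KO cells in each treatment without overlap (log2 fold change -0.24 under Nutlin-3a, adjusted p = 0.00827, and -0.33 under DMSO, adjusted p = 0.000999), and most of its reads remained. Of 12 neuroblastoma markers, 6 exceeded 10 CPM in all 8 libraries. The others ran low in at least 1 genotype, and not in the same one. CHGB and STMN2 stayed under 2 CPM in all libraries. TH, the first enzyme of catecholamine synthesis, was at 9.85 to 13.3 CPM in KO and 223 to 466 CPM in WT libraries. ISL1 was at 5.04 to 6.29 CPM in KO and 8.03 to 14.9 CPM in WT libraries. DBH and PHOX2A went the other way. DBH was at 28.8 to 37.1 CPM in KO and 0.320 to 0.916 CPM in WT libraries. PHOX2A was at 50.6 to 63.5 CPM in KO and 7.68 to 13.0 CPM in WT libraries. Of 10 markers of other cell types, CD3E had 0 reads in all libraries, and only COL3A1, at 1352 to 2636 CPM, and DCN, at 4.26 to 36.1 CPM, exceeded 3 CPM anywhere. The summed level of the 10 was 2213 to 2673 CPM in KO and 1360 to 1512 CPM in WT libraries, nearly all of it COL3A1, and its part in the results was not tested.

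Several libraries stood apart before any comparison. KO Nutlin-3a replicate 2, WT Nutlin-3a replicate 1 and WT DMSO replicate 2 held 507, 2342 and 1057 reads of 7, 30 and 14 genes that were nearly absent from the other replicate of their group, and the other 5 libraries held none. No ribosomal protein gene was among those genes. WT Nutlin-3a replicate 1 exceeded replicate 2 in 76 of 77 members, by a median of 0.15 on the log2 scale. KO Nutlin-3a replicate 2 exceeded replicate 1 in 53 of 77, with a median log2 difference, replicate 1 over replicate 2, of -0.10 in the 23 members shorter than 600 bases and -0.07 in the 444 other short genes. Counts of calls are therefore given with the range over fits that each leave out 1 library. Shares of all tested genes are those of the fit with all 8 libraries, so counts from other fits have no share beside them. Leaving out all 3 libraries keeps 1 library in each group but KO DMSO, so only medians are given for that fit. A call means an adjusted p under 0.05 in edgeR's quasi-likelihood test with Benjamini-Hochberg adjustment over 15879 genes.

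Ribosomal protein mRNAs were among the most abundant in the cells. Their median level was 1137 RPKM (reads scaled to gene length and library depth, mean of 8 libraries), against 6.96 RPKM over all tested genes, and 66 of the 77 lay above the 99th percentile. RPLP1, a protein of the ribosomal stalk, was highest at 4858 RPKM, followed by RPS27 at 4079 and RPS2 at 3387 RPKM. RPL27A at 89.9 and RPL36A at 97.0 RPKM were near the bottom of the set in RPKM, which divides by gene lengths of 4879 and 2911 bases. These lengths are those implied by the deposited counts and RPKM. Before length scaling RPL27A, at 412 to 488 CPM, lay above RPS10, at 166 to 199 CPM and 209 RPKM. RPL21 stood alone at 2.78 RPKM, with 397 reads in all 8 libraries together. RefSeq lists 137 pseudogenes named for RPL21, the most of any member, against a median of 17 per member and 1966 over the set. No source used here gives how reads that match several loci were counted, so levels of members with many near-identical copies are uncertain. Over the 77 members the Spearman correlation of level with pseudogene number was -0.17, and with gene length -0.64, both given as descriptions.

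The 77 genes together took the smallest share of reads in WT DMSO libraries, and of the total reads the largest share in KO Nutlin-3a libraries. The share was 8.40% and 8.67% in KO Nutlin-3a, 7.88% and 7.91% in KO DMSO, 8.28% and 7.54% in WT Nutlin-3a, and 6.52% and 6.46% in WT DMSO libraries. The 95% Wilson interval, which covers counting error only, ran between 8.39% and 8.41% in KO Nutlin-3a replicate 1. Group means were 8.53 ± 0.187%, 7.90 ± 0.0248%, 7.91 ± 0.523% and 6.49 ± 0.0414% in the same order (SD, n = 2 each). The WT DMSO pair lay below all 6 other libraries. On TMM-scaled totals the share was 8.06% and 8.38% in KO Nutlin-3a and 8.53% and 7.70% in WT Nutlin-3a libraries, so these pairs overlapped and WT Nutlin-3a replicate 1 was highest. The KO DMSO pair lay between the 2 WT Nutlin-3a libraries, so those groups overlapped. Reads in large subunit genes were 1.40 to 1.43 times those in small subunit genes in every library. A share is relative to the other mRNAs, and in bulk RNA a change in RNA per cell and a change in the mix of cells cannot be told apart. The 77 mitochondrial ribosomal protein genes of the MRPL and MRPS series ran the other way between genotypes under DMSO, with mean shares of 0.478% in KO Nutlin-3a, 0.493% in KO DMSO, 0.482% in WT Nutlin-3a and 0.544% in WT DMSO cells.

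**Figure D1:**
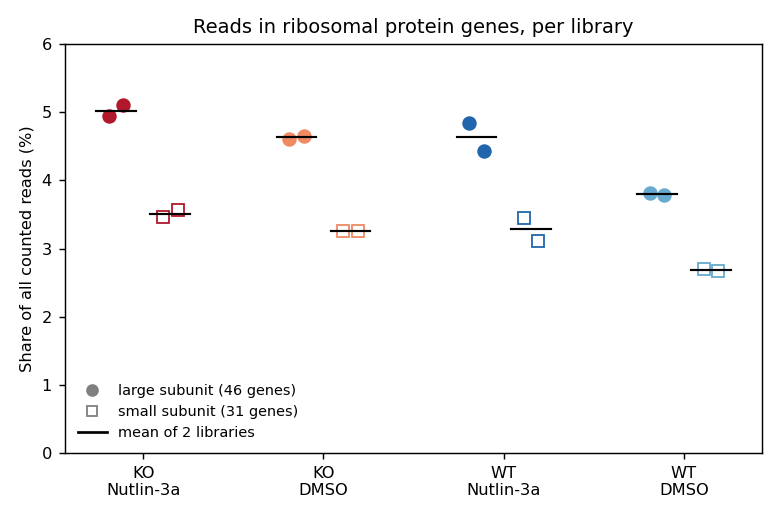
Share of all counted reads (%, y axis) that fell in the 46 large subunit genes (filled circles) and the 31 small subunit genes (open squares) in each library, by group (x axis), with the mean of 2 libraries as a bar. Both subunits are lowest in the WT DMSO libraries, and the 2 WT Nutlin-3a libraries lie further apart than any other pair.

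In KO cells Nutlin-3a raised 13 of the 77 members and lowered none past the test, where 18.1% of all tested genes were higher and 20.6% lower than with DMSO. The share of members called higher was thus close to the background. At an unadjusted p under 0.05 edgeR put 20 members higher and 1 lower, DESeq2 called 17 higher and 0 lower after adjustment, and limma called 14 and 0. The median member log2 fold change was 0.08 (range -0.26 to 0.51), beside -0.01 over all tested genes, and 66 of 77 estimates were above 0. Large subunit genes gave 9 higher of 46 and small subunit genes 4 of 31, with medians of 0.09 and 0.06. The count was sensitive to the libraries used. It was 2 without KO DMSO replicate 1 and 38 without either WT Nutlin-3a library, the ends of the range when 1 library was left out, and RPS19 and RPL3 were the only members called in all 8 of those fits. Without the 3 libraries the median was 0.08, in a fit of 5 libraries with 1 residual degree of freedom, which comes from the KO DMSO pair.

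In WT cells the rise was larger and broad. Nutlin-3a raised 60 of the 77 members and lowered 1, where 29.4% of all tested genes were higher and 29.2% lower. The median was 0.28 (range -0.24 to 0.83), beside 0.02 over all tested genes, and only RPS19 and RPL13A were called at more than 1.5-fold. Large subunit genes gave 39 higher of 46 and small subunit genes 21 higher and 1 lower of 31, with medians of 0.28 in both. Of the 60 calls, 47 were made in each of the 8 fits that left out 1 library, and the median ranged between 0.23 without WT Nutlin-3a replicate 1 and 0.38 without WT Nutlin-3a replicate 2. Without the 3 libraries, which leaves 1 library on each side, the median was 0.22. All 13 members called higher in KO cells were also called higher in WT cells, that is 100% of the KO list and 21.7% of the WT list.

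**Figure D2:**
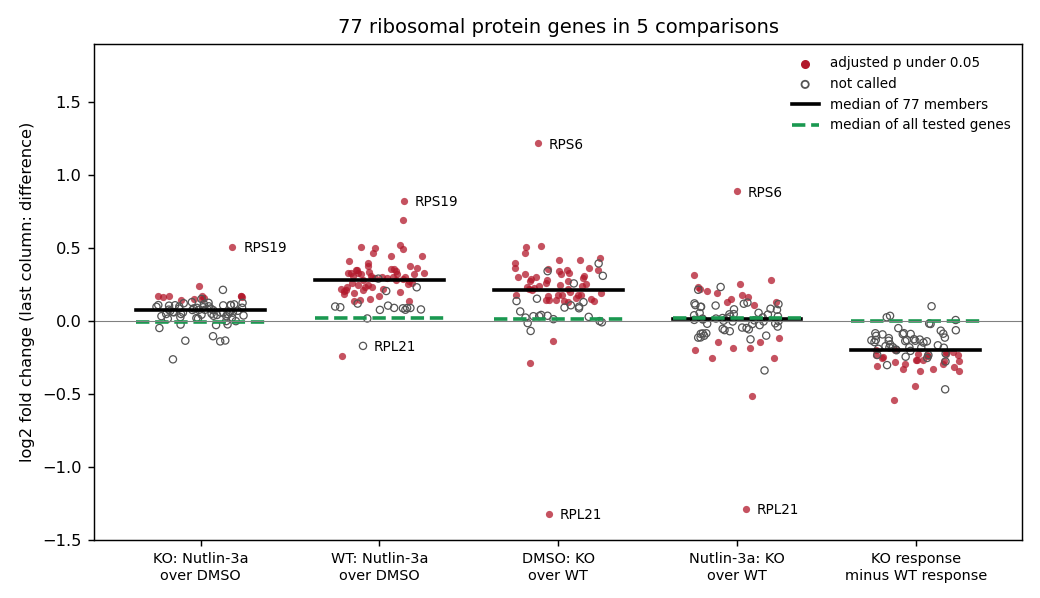
Fitted log2 values (y axis) of the 77 members in the 5 comparisons (x axis), with each point a gene, filled where the adjusted p was under 0.05, and with the medians of the members and of all tested genes as solid and dashed lines. The members' median is 0.08 for the KO response, 0.28 for the WT response and 0.21 for KO over WT under DMSO, and RPS6, RPL21 and RPS19 lie apart from the rest.

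RPS19, a small subunit protein needed to mature the 18S ribosomal RNA, had the largest rise in both genotypes. It stood at 1307 and 1319 CPM in KO Nutlin-3a against 907 and 938 CPM in KO DMSO libraries, and at 1652 and 1474 CPM in WT Nutlin-3a against 887 and 876 CPM in WT DMSO libraries. All 4 Nutlin-3a libraries lay above all 4 DMSO libraries. The log2 fold change was 0.51 in KO (SE 0.053, adjusted p = 3.11e-07) and 0.83 in WT cells (SE 0.053, adjusted p = 1.38e-10). The rise was 0.32 smaller in KO cells on the log2 scale (SE 0.074, adjusted p = 0.00357), and each of the 3 calls was made in all 8 fits without 1 library.

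RPL13A, a large subunit protein also known outside the ribosome as a regulator of translation in inflammation, rose mainly in WT cells. Its level was 229 and 236 CPM in KO Nutlin-3a and 206 and 213 CPM in KO DMSO libraries, and 345 and 318 CPM in WT Nutlin-3a and 208 and 203 CPM in WT DMSO libraries. The DMSO libraries of both genotypes overlapped, and the WT Nutlin-3a pair lay above the 6 other libraries. The log2 fold change was 0.15 in KO (SE 0.048, adjusted p = 0.0188) and 0.69 in WT cells (SE 0.049, adjusted p = 5.45e-10), a difference of -0.54 (SE 0.068, adjusted p = 1.11e-05). The KO call was lost without any 1 of the 4 KO libraries (adjusted p of 0.0582 to 0.173), and the other 2 calls were made in all 8 fits without 1 library. RPL13A had the largest difference in response among the members.

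RPL3, which reaches toward the peptidyl transferase centre, was high with Nutlin-3a and high in KO cells. It stood at 1908 and 1896 CPM in KO Nutlin-3a, 1607 and 1614 CPM in KO DMSO, 1801 and 1716 CPM in WT Nutlin-3a, and 1226 and 1222 CPM in WT DMSO libraries. No pair overlapped another. The Nutlin-3a response was 0.24 in KO (SE 0.046, adjusted p = 0.000358) and 0.52 in WT cells (SE 0.046, adjusted p = 1.27e-08). Under DMSO, KO exceeded WT cells by 0.40 (SE 0.046, adjusted p = 5.51e-07).

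Other members with large rises in WT cells were RPS9, RPS4X, RPL31 and RPL28. RPS9 had responses of 0.17 in KO (adjusted p = 0.00941) and 0.51 in WT cells (adjusted p = 3.97e-08). RPS4X had 0.17 (adjusted p = 0.0107) and 0.50 (adjusted p = 8.14e-08), and RPL31 had 0.17 (adjusted p = 0.0101) and 0.46 (adjusted p = 1.5e-07) in the same order. RPL28 was not called in KO cells (0.21, adjusted p = 0.267) unless a WT Nutlin-3a library was left out (0.23, adjusted p = 0.0103), and its WT rise (0.45, adjusted p = 0.0294) was lost without WT DMSO replicate 1 (0.35, adjusted p = 0.0665). RPL10A, RPL12 and RPS18 were also called in KO cells at 0.17 each. These 3, RPS9, RPS4X and RPL31 lost the KO call without KO DMSO replicate 1, without KO DMSO replicate 2 and without KO Nutlin-3a replicate 2, with adjusted p between 0.0607 and 0.108. RPL12, RPS18 and RPS4X also lost it without KO Nutlin-3a replicate 1 (adjusted p of 0.0502 to 0.0599).

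RPS26, a small subunit protein that contacts the mRNA upstream of the start codon, was the single member that Nutlin-3a lowered in WT cells. It stood at 254 and 247 CPM in KO Nutlin-3a, 279 and 274 CPM in KO DMSO, 304 and 266 CPM in WT Nutlin-3a and 328 and 346 CPM in WT DMSO libraries. The WT DMSO pair was above all other libraries. The response was -0.14 in KO (SE 0.056, adjusted p = 0.0546) and -0.24 in WT cells (SE 0.056, adjusted p = 0.00109), a WT call made in all 8 fits without 1 library. Its KO response was called when either WT Nutlin-3a library was left out (-0.12, adjusted p of 0.00517 and 0.00524). KO cells were lower than WT cells under DMSO by 0.29 on the log2 scale (log2 fold change -0.29, adjusted p = 0.000212).

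Of 16 members known to bind MDM2, none was called in the KO response, while 13 were higher and 1 lower in the WT response. Over all 77 members, 13 were higher in the KO response, and 60 were higher and 1 lower in the WT response. Of all tested genes 18.1% were higher in the KO response, and 29.4% were higher and 29.2% lower in the WT response. In KO cells edgeR put 1 of the 16 higher and 1 lower at an unadjusted p under 0.05, and DESeq2 and limma each called 1 higher after adjustment. The median of the 16 was 0.06 in KO and 0.29 in WT cells. RPL5 stood at 574 and 582 CPM in KO Nutlin-3a, 545 and 538 CPM in KO DMSO, 610 and 569 CPM in WT Nutlin-3a and 474 and 469 CPM in WT DMSO libraries, so the Nutlin-3a pairs overlapped and both DMSO pairs lay below them. Its response was 0.09 in KO (SE 0.046, adjusted p = 0.121) and 0.32 in WT cells (SE 0.047, adjusted p = 9.19e-06). The KO value was called when either WT Nutlin-3a library was left out (0.11, adjusted p of 0.00624 and 0.00633). RPL11 stood at 481 and 570 CPM in KO Nutlin-3a, 511 and 484 CPM in KO DMSO, 554 and 473 CPM in WT Nutlin-3a and 412 and 410 CPM in WT DMSO libraries. The Nutlin-3a pairs of RPL11 were spread widely, and 3 of the 4 groups overlapped. Its KO response was 0.08 (adjusted p = 0.529), and its WT rise of 0.32 (SE 0.088, adjusted p = 0.00985) did not hold when WT Nutlin-3a replicate 1 was left out (0.23, adjusted p = 0.168).

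RPL23, also an MDM2 binder, had responses of 0.06 in KO (adjusted p = 0.35) and 0.33 in WT cells (adjusted p = 6.24e-06). RPS14, another, had 0.04 in KO (adjusted p = 0.568) and 0.31 in WT cells (adjusted p = 5.16e-05). RPS27A, made as a fusion with ubiquitin, was called in WT cells at 0.14 (adjusted p = 0.0315), and the call was lost without any 1 of the DMSO libraries and without WT Nutlin-3a replicate 1 (adjusted p of 0.0603 to 0.13). RPS7 stood at 709 and 735 CPM in KO Nutlin-3a, 674 and 686 CPM in KO DMSO, 754 and 659 CPM in WT Nutlin-3a and 678 and 659 CPM in WT DMSO libraries. It was not called in any of the 5 comparisons, although it passed in the KO response without either WT Nutlin-3a library (0.10, adjusted p of 0.0134 and 0.0135), in the WT response without WT Nutlin-3a replicate 2 (0.20, adjusted p = 0.00015) and in KO over WT under Nutlin-3a without WT Nutlin-3a replicate 1 (0.12, adjusted p = 0.0136). RPS27, whose paralog RPS27L is described further on, had a WT response of 0.29 (SE 0.132, adjusted p = 0.109) with wide replicates, at 1633 and 1337 CPM in WT Nutlin-3a and 1203 and 1225 CPM in WT DMSO libraries. With either KO Nutlin-3a library left out, the same value was called (adjusted p of 0.00524 and 0.00515).

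The ribosomal stalk is the flexible arm that recruits elongation factors. RPLP0, its base, stood at 2942 and 2909 CPM in KO Nutlin-3a, 2727 and 2788 CPM in KO DMSO, 3121 and 3022 CPM in WT Nutlin-3a and 2526 and 2470 CPM in WT DMSO libraries, with no overlap between groups. In KO cells the responses of RPLP0, RPLP1 and RPLP2 were 0.09, 0.11 and 0.15, none of them called. With either WT Nutlin-3a library left out, RPLP0 (0.10, adjusted p of 0.0118 and 0.0119) and RPLP1 (0.13, adjusted p of 0.00593 and 0.00601) were called there. In WT cells all 3 were called higher, at 0.30, 0.37 and 0.20 in the same order. The WT call of RPLP2 did not hold when WT DMSO replicate 1 was left out (adjusted p = 0.102), nor when WT Nutlin-3a replicate 1 was (adjusted p = 0.0524). Of the 19 members listed as Diamond-Blackfan anaemia genes, 2 were called higher in KO cells, and 12 were higher and 1 lower in WT cells. The counts over all 77 members were 13 higher in KO cells, and 60 higher and 1 lower in WT cells. The shares of all tested genes were 18.1% higher in KO cells, and 29.4% higher and 29.2% lower in WT cells.

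**Figure D3:**
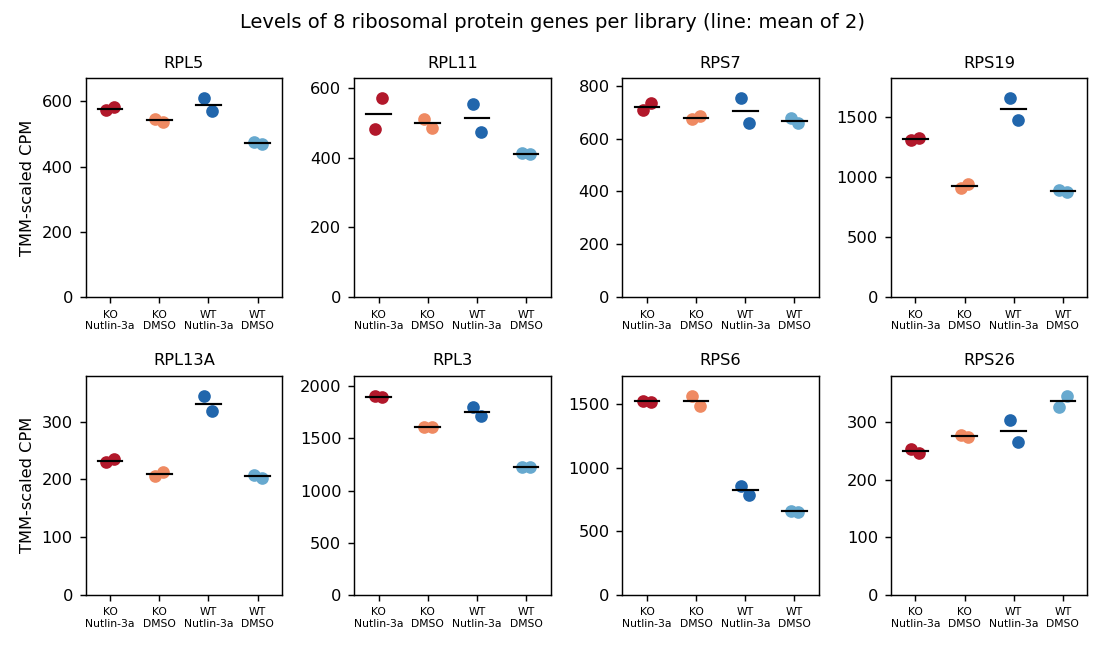
TMM-scaled CPM (y axes, each starting at 0) of 8 members in each library by group (x axes), with the mean of 2 libraries as a bar. RPS19 is high in all 4 Nutlin-3a libraries, RPL13A mainly in the 2 WT Nutlin-3a libraries and RPS6 in all 4 KO libraries, while RPS26 is highest in WT DMSO.

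The response itself differed between genotypes in part of the set. The KO response minus the WT response was called lower than 0 for 28 of 77 members and higher for none, where 13.4% of all tested genes were lower and 14.2% higher. At an unadjusted p under 0.05 edgeR put 38 lower and 0 higher, DESeq2 called 33 lower and 0 higher after adjustment, and limma called 15 and 0. The median difference was -0.20, beside -0.00 over all tested genes, and the KO rise was the smaller in 73 of 77 members. Large subunit genes gave 15 of 46 and small subunit genes 13 of 31. The count was 12 without WT DMSO replicate 2 and 62 without WT Nutlin-3a replicate 2, the ends of the range when 1 library was left out, and 9 members were called in all 8 of those fits: RPL3, RPL7, RPL13A, RPL23, RPL31, RPS4X, RPS6, RPS9 and RPS19. Without the 3 libraries the median difference was -0.15. The median was -0.12 without WT Nutlin-3a replicate 1 and -0.28 without WT Nutlin-3a replicate 2.

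Beside RPL13A, large called differences were those of RPL7 (-0.34), RPS9 (-0.34), RPS6 (-0.33) and RPS4X (-0.33). RPL5 (-0.23, adjusted p = 0.0151), RPL22 (-0.25, adjusted p = 0.04), RPS14 (-0.27, adjusted p = 0.0111), RPLP0 (-0.21, adjusted p = 0.0205) and RPLP1 (-0.27, adjusted p = 0.0212) were called with all libraries, and each lost the call in 3 or more of the 8 fits without 1 library, always including the one without KO DMSO replicate 1 and the one without KO Nutlin-3a replicate 1. RPL11 had a difference of -0.24 (SE 0.124, adjusted p = 0.184), RPS27A of -0.09 and RPS7 of 0.01, none of them called. RPL11 was called without KO Nutlin-3a replicate 2 (-0.37, adjusted p = 0.0193) and RPS27A without WT Nutlin-3a replicate 2 (-0.17, adjusted p = 0.0195).

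**Figure D4:**
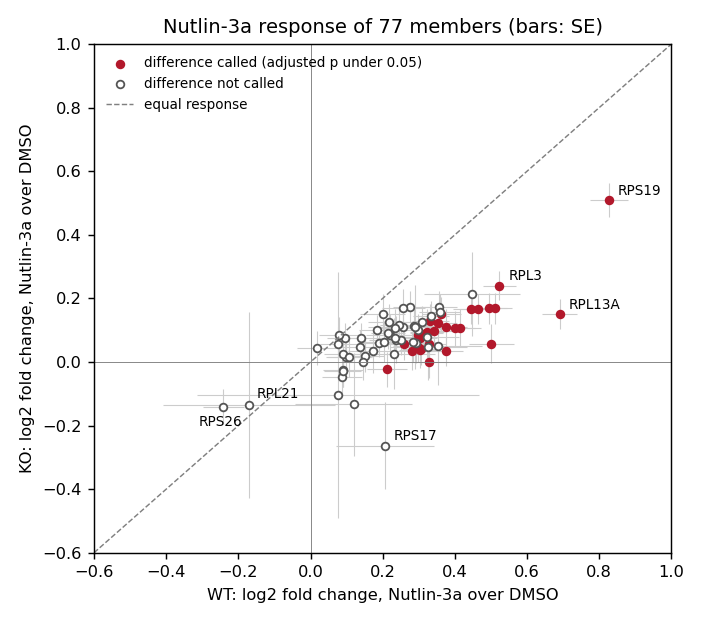
Log2 fold change of Nutlin-3a over DMSO in KO cells (y axis) and WT cells (x axis) for the 77 members, with SE bars and the line of equal response, filled where the difference of the responses was called. Nearly all members lie below the line, with RPS19 and RPL13A farthest to the right.

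Without Nutlin-3a, KO cells already held more of most ribosomal protein mRNAs than WT cells did. Under DMSO 51 of 77 members were higher in KO cells and 3 lower, where 31.4% of all tested genes were higher and 30.1% lower. The median was 0.21, beside 0.01 over all tested genes. Large subunit genes gave 33 higher and 2 lower, small subunit genes 18 higher and 1 lower. Of the 51 calls, 32 were made in all 8 fits without 1 library. Without the 3 libraries the median was 0.19. The WT DMSO libraries serve as the lower arm of both this comparison and the WT response, so the 2 sets of values are given side by side and are not independent. The difference of the responses uses the same libraries and is not independent of either.

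Under DMSO RPS4X was higher by 0.51 (adjusted p = 5.74e-08), RPL37 by 0.51 (adjusted p = 0.00371), RPL10 by 0.46 (adjusted p = 4.86e-07), RPL31 by 0.43 (adjusted p = 3.98e-07), RPS3A by 0.42 (adjusted p = 3.32e-07) and RPL34 by 0.42 (adjusted p = 3.68e-06). RPL22, known in mouse to bind the mRNA of its paralog, stood at 416 and 399 CPM in KO DMSO against 310 and 328 CPM in WT DMSO libraries (log2 fold change 0.35, SE 0.060, adjusted p = 7.73e-05). RPL5 and RPL23 were higher by 0.20 (adjusted p = 0.00119) and 0.29 (adjusted p = 2.87e-05). RPL11 was higher by 0.28 (adjusted p = 0.0198), a call lost without KO DMSO replicate 1 or any 1 of the 4 WT libraries (adjusted p of 0.0598 to 0.0911). RPS19 (0.07, adjusted p = 0.292), RPL13A (0.03, adjusted p = 0.629) and RPS7 (0.02, adjusted p = 0.73) did not pass. RPL35 was lower (-0.14, adjusted p = 0.0376), a call lost without any 1 of the 4 DMSO libraries (adjusted p of 0.0622 to 0.272).

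RPS6, the small subunit protein phosphorylated downstream of mTOR, was the member highest in KO over WT cells in both treatments. It stood at 1529 and 1523 CPM in KO Nutlin-3a, 1566 and 1487 CPM in KO DMSO, 859 and 788 CPM in WT Nutlin-3a and 661 and 650 CPM in WT DMSO libraries. All 4 KO libraries lay far above all 4 WT libraries. KO exceeded WT cells by 1.22 under DMSO (SE 0.051, adjusted p = 2.79e-13) and by 0.89 under Nutlin-3a (SE 0.051, adjusted p = 2.33e-11). Its response to Nutlin-3a was -0.00 in KO (adjusted p = 0.994) and 0.33 in WT cells (adjusted p = 1.77e-05). RPS6 lies on chromosome 9, and the 10 nearest tested genes, 5 on each side in RefSeq order and looked at after the value of RPS6 was seen, were all called higher in KO over WT under DMSO, with log2 fold changes of 0.78 for HAUS6, 1.04 for DENND4C, 1.17 for RRAGA, 1.54 for ACER2, 2.28 for ADAMTSL1, 2.55 for MTAP, 2.70 for FOCAD and KLHL9 and 3.29 for MLLT3. The tenth, PLIN2, had 751 and 773 reads in KO DMSO against 2 and 2 reads in WT DMSO libraries. Under Nutlin-3a ACER2 was not called (-0.15, adjusted p = 0.388), while the other 9 were called higher in KO cells. The other members on chromosome 9 had log2 fold changes of 0.14 for RPL12, 0.18 for RPL7A and -0.14 for RPL35 in the same comparison.

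RPL21, a large subunit protein, lay at the other end, at a level so low that each library held few of its 397 reads. It stood at 0.815 and 0.932 CPM in KO Nutlin-3a, 1.09 and 0.83 CPM in KO DMSO, 2.18 and 2.08 CPM in WT Nutlin-3a, and 2.07 and 2.74 CPM in WT DMSO libraries. All KO libraries were below all WT libraries. KO was lower than WT cells under DMSO (-1.32, SE 0.258, adjusted p = 0.00022) and under Nutlin-3a (-1.29, SE 0.269, adjusted p = 0.000409). Of the 10 nearest tested genes on chromosome 13, looked at in the same way, 9 were lower in KO cells under DMSO, among them GTF3A (-1.44) and RNF6 (-1.43), and WASF3 was higher (0.59). The 9 include the small nucleolar RNA genes SNORD102 and SNORA27, which stand next to RPL21 in that order and held 17 to 55 reads per library. What sets the neighbours of RPS6 and RPL21 apart was not tested.

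**Figure D5:**
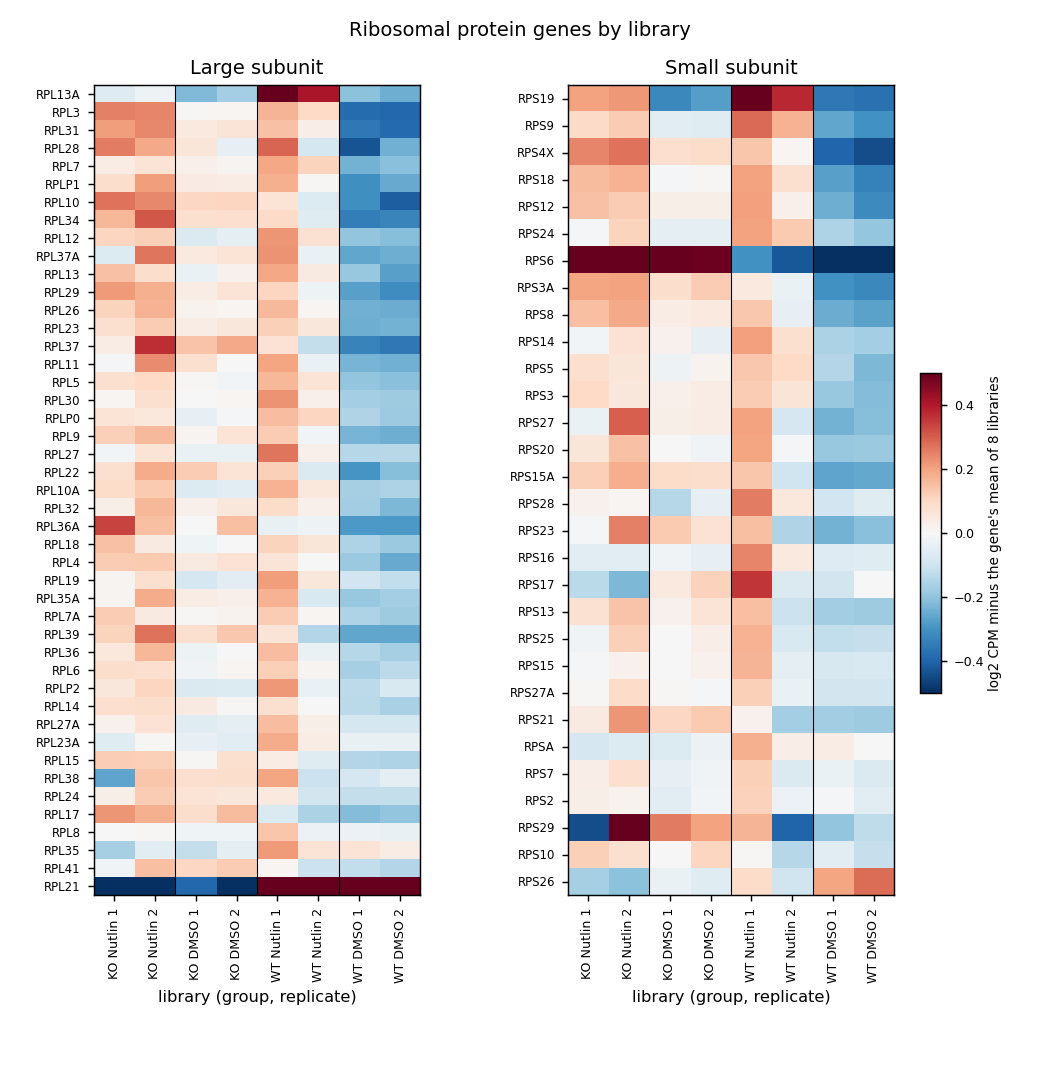
Log2 CPM of each member minus its mean over 8 libraries (colour, limited to -0.5 to 0.5), with most members in rows by subunit and ordered by the WT response, and libraries in columns by group and replicate. The WT DMSO columns are low for most members, the 2 WT Nutlin-3a columns differ from each other along most of the set, RPL21 and RPS26 run against the pattern, and RPS6 separates the genotypes.

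Under Nutlin-3a the members called between genotypes were fewer and split between both directions. KO against WT gave 14 higher and 10 lower of 77, where 32.7% of all tested genes were higher and 30.4% lower, so both shares were below the background. The median was 0.02, equal to that of all tested genes. Large subunit genes gave 9 higher and 4 lower, small subunit genes 5 higher and 6 lower. The split depended on the scaling: DESeq2 size factors gave 11 higher and 14 lower with a median of -0.01, upper-quartile factors 21 and 7, and a correction for gene length 15 and 19 with a median of -0.02. It also depended on the WT Nutlin-3a pair, with a median of 0.08 without replicate 1 and -0.07 without replicate 2. Without the 3 libraries, which leaves 1 library on each side, the median was 0.05.

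RPS6 (0.89), RPL17 (0.31, adjusted p = 1.28e-05), RPL36A (0.28, adjusted p = 0.000621) and RPL10 (0.25, adjusted p = 0.000436) were the highest in KO over WT cells under Nutlin-3a, and were called in all 8 fits without 1 library. RPL13A (-0.51, SE 0.048, adjusted p = 3.17e-08) and RPS19 (-0.25, SE 0.052, adjusted p = 0.0004) were lower in KO cells, likewise in all 8 fits. RPL35 (-0.25), RPS16 (-0.20) and RPSA (-0.19) were also called lower in each of those 8 fits. With limma on log2(RPKM + 1), RPS16 (-0.11, adjusted p = 0.153) and RPSA (-0.09, adjusted p = 0.161) were not called. RPS26 (-0.18, adjusted p = 0.00771) was no longer called when WT Nutlin-3a replicate 1 was left out (-0.09, adjusted p = 0.067), nor was it with KO Nutlin-3a replicate 2 left out (-0.16, adjusted p = 0.0707). RPL5 (-0.03), RPL11 (0.03), RPL23 (0.02), RPS7 (0.03) and RPLP0 (-0.07) were not called, but RPLP0 was without WT Nutlin-3a replicate 2 (-0.10, adjusted p = 0.0391).

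The members' median length was 837 bases, against 3112 bases over all tested genes. Among genes under 1000 bases, the WT response had a median of 0.26 in the 49 members and 0.00 in the 1115 other genes, and KO over WT under DMSO had medians of 0.18 and -0.09. The WT response of members was 0.27 at 1000 to 2000 bases, 0.31 at 2000 to 4000 bases and 0.27 in the 4 members of 4000 bases or more. The last 4 were RPL13, RPL15, RPL27A and RPL28, at 4716 to 5183 bases. With a length correction per library, 33 members were higher and 1 lower in the KO response and 69 higher and 1 lower in the WT response. All these lengths are those implied by the deposited counts and RPKM, and no source used here relates them to the mRNAs present. The classes and the correction therefore cannot show whether the changes depend on mRNA length.

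Genes known for TOP mRNAs that are not ribosomal proteins were counted beside the members. Over all tested genes 18.1% were higher and 20.6% lower in the KO response, and 29.4% and 29.2% in the WT response. For KO over WT under DMSO the shares were 31.4% and 30.1%. Of 15 translation factors with TOP mRNAs, 4 were called higher in the KO response and 11 in the WT response, and 10 were higher and 1 lower in KO over WT under DMSO. EEF2, the translocase of elongation, stood at 2785 and 2734 CPM in KO Nutlin-3a, 2289 and 2406 CPM in KO DMSO, 2785 and 2877 CPM in WT Nutlin-3a and 1866 and 1799 CPM in WT DMSO libraries, with responses of 0.23 in KO (adjusted p = 0.00071) and 0.63 in WT cells (adjusted p = 1.82e-09). EEF1A1, which delivers aminoacyl-tRNA, had responses of 0.12 (adjusted p = 0.0636) and 0.39 (adjusted p = 1.16e-06). Of 10 other TOP mRNAs, 3 were higher and 3 lower in the WT response, with TPT1 at 0.38 and FBL at -0.57. In the KO response 2 of these 10 were higher and 3 lower. For KO over WT under DMSO 2 of these 10 were higher and 5 lower, with a median of -0.10. GNB2L1, the older symbol of the ribosome-bound scaffold RACK1, rose in WT cells by 0.32 (adjusted p = 1.6e-05).

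Some genes that host small nucleolar RNAs are known for TOP starts and encode no ribosomal protein. Of the 10 such hosts listed, 7 were called higher in the KO response, and 8 were higher and 2 lower in the WT response. For KO over WT under DMSO 4 hosts were higher and 2 lower. The shares of all tested genes were 18.1% higher in the KO response, and 29.4% higher and 29.2% lower in the WT response. They were 31.4% higher and 30.1% lower for KO over WT under DMSO. GAS5 stood at 353 and 349 CPM in KO Nutlin-3a against 269 and 287 CPM in KO DMSO libraries, and at 376 and 332 CPM in WT Nutlin-3a against 232 and 218 CPM in WT DMSO libraries, with log2 fold changes of 0.34 (adjusted p = 0.000109) and 0.65 (adjusted p = 1.51e-08). SNHG1 had -0.08 in KO (adjusted p = 0.268) and fell in WT cells (-0.73, adjusted p = 2.31e-09).

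Ribosome assembly factors and mitochondrial ribosomal proteins were called lower more often than higher. The shares of all tested genes were 18.1% higher and 20.6% lower in the KO response, and 29.4% and 29.2% in the WT response. They were 31.4% and 30.1% for KO over WT under DMSO. Of 50 assembly factors, 3 were higher and 14 lower in the KO response, 3 and 32 in the WT response, and 3 and 39 in KO over WT under DMSO. NOP56, a core protein of box C/D particles, had responses of -0.28 in KO (adjusted p = 6.56e-05) and -0.79 in WT cells (adjusted p = 3.43e-11), and NCL, nucleolin, -0.31 (adjusted p = 3.37e-05) and -0.67 (adjusted p = 4.12e-10). For the difference of the responses 23 of the 50 were called higher than 0 and 1 lower, where 14.2% of all tested genes were higher and 13.4% lower. Of the 77 MRPL and MRPS genes, 4 were higher and 24 lower in the KO response, 8 and 43 in the WT response, and 5 and 47 in KO over WT under DMSO, with MRPS34 at -0.57 in KO and -0.98 in WT cells and MRPL49 at 0.71 and 0.90.

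The paralogs of members followed courses of their own. RPS27L, a p53 target that resembles RPS27, stood at 338 and 344 CPM in KO Nutlin-3a against 82.6 and 78.0 CPM in KO DMSO libraries, and at 421 and 371 CPM in WT Nutlin-3a against 71.0 and 73.7 CPM in WT DMSO libraries. Its log2 fold change was 2.09 in KO (SE 0.058, adjusted p = 2.52e-15) and 2.45 in WT cells (SE 0.059, adjusted p = 1.34e-16), well above any member. RPL22L1, the paralog of RPL22, stood at 84.4 and 89.5 CPM in KO Nutlin-3a, 95.9 and 97.3 CPM in KO DMSO, 126 and 118 CPM in WT Nutlin-3a, and 187 and 181 CPM in WT DMSO libraries. Under DMSO it was lower in KO cells (-0.93, adjusted p = 1.06e-11), where RPL22 was higher, and had Nutlin-3a responses of -0.15 in KO (adjusted p = 0.0233) and -0.59 in WT cells (adjusted p = 6.75e-09).

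RPL39L was at 3.52 to 10.1 CPM and was lower with Nutlin-3a, at -0.58 in KO (adjusted p = 0.000601) and -1.07 in WT cells (adjusted p = 2.03e-06). RPL36AL and RPL7L1 were lower in KO cells with DMSO (-0.28, adjusted p = 0.0145, and -0.24, adjusted p = 0.00527) and were not called in either response. RPL26L1 was not called in any comparison. RPL3L and RPL10L had too few reads to be tested.

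Of 27 transcripts with the name of a ribosomal protein pseudogene, 12 could be tested, and 3 rose steeply in both genotypes. RPL23AP7 stood at 26.5 and 27.5 CPM in KO Nutlin-3a against 10.8 and 10.9 CPM in KO DMSO libraries, and at 49.3 and 51.1 CPM in WT Nutlin-3a against 10.1 and 11.7 CPM in WT DMSO libraries. Its log2 fold change was 1.31 in KO and 2.21 in WT cells, beside 1.34 and 2.01 for RPL23AP53 and 1.37 and 2.04 for RPL23AP82. All 3 share a parent gene, so reads may be split among them. The parent, RPL23A, had responses of 0.02 in KO (adjusted p = 0.8) and 0.15 in WT cells (adjusted p = 0.0169), a WT call lost when either WT DMSO library was left out (adjusted p of 0.0847 and 0.0895).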

How the data were processed

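The authors deposited 2 tables of the whole series, read counts per gene and RPKM values per gene, for 8 poly(A) RNA libraries made with a strand-specific TruSeq kit, per the labels' protocols. Per the submitters' processing notes the build was hg19 (GRCh37) and the tools included HTSeq 0.8.0, TopHat2 2.1.1 and Bowtie2 2.2.9.0, beside Picard 2.9.4, SAMtools 1.5 and FastQC 0.11.5. No source used here gives the annotation, the strand setting or the treatment of reads with several matches, so genes with near-identical copies, overlapping or antisense partners are uncertain. The deposited RPKM values served for levels between genes and for gene length.

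The deposited counts were fitted with edgeR 4.0.16 (R 4.3.3) as 4 group means over all 8 libraries (4 residual degrees of freedom) after filterByExpr (15879 of 25369 genes kept) and TMM scaling, with a common biological coefficient of variation of 0.0424. The robust quasi-likelihood test was applied to 5 comparisons with Benjamini-Hochberg adjustment over all tested genes and a threshold of 0.05, after a test on simulated data. CPM values use TMM-scaled totals, except marker levels, which use plain totals. Every pair of replicates differed beyond sampling noise and was kept as 2 samples. Reads were called unrelated where a gene exceeded 1 CPM and 8 times the level in the other replicate plus 0.05 CPM. Promoter windows came from a RefSeq table of GRCh38.p14, used for names, chromosomes and start sequences only.

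The members, the companion lists and the rule for named genes were chosen with earlier results of these data known, so counts over a list are descriptions. The rule names RPL5, RPL11, RPL23, RPS7, RPS27A, RPS27, RPS14, RPS19, RPL22 and RPLP0 throughout, and per comparison up to 8 called members with the largest rise and 8 with the largest fall without overlap between groups, the 3 highest and 3 lowest by RPKM and up to 3 farthest from the members' median on each side. From each companion list it takes up to 3 called genes with the smallest p, and the paralogs whole. Some of these are left out for length, a few genes are not reported here, and members named beyond the rule were chosen after their values were seen. Alternatives were DESeq2 1.42.0 size factors and its Wald test, upper-quartile factors, TMM without the members, per-library length offsets, no low-count filter, limma 3.58.1 on log2(RPKM + 1) and log2(RPKM + 0.1), a threshold of 0.01, the replicate number as a block, separate fits of 4 libraries, each library left out and the 3 libraries with unrelated reads left out.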

Additional observations from a re-analysis of the deposited data

Results flagged for a closer look

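For the members given here, the response to Nutlin-3a differed between KO and WT cells by a test of the difference itself (edgeR's quasi-likelihood test, adjusted over 15879 genes), always with the lower value in KO cells. The values, KO response minus WT response on the log2 scale, were -0.54 for RPL13A, -0.34 for RPL7 and RPS9, -0.33 for RPS6 and RPS4X, -0.32 for RPS19, -0.27 for RPL23, RPS14 and RPLP1, -0.25 for RPL22, -0.23 for RPL5 and -0.21 for RPLP0. RPL13A, RPL7, RPS9, RPS6, RPS4X, RPS19 and RPL23 were called in all 8 fits that left out 1 library. The WT DMSO libraries enter these differences, which are therefore not independent of KO over WT under DMSO. Over the 77 members the median of KO over WT was 0.21 under DMSO and 0.02 under Nutlin-3a. The ranges of adjusted p in the fits that lost the call were 0.0556 to 0.083 for RPL5, 0.0531 to 0.178 for RPL22, 0.0581 to 0.0893 for RPS14, 0.0602 to 0.121 for RPLP0 and 0.0534 to 0.139 for RPLP1.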

How the results depend on the processing

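Counts are members higher and lower. The shares of all tested genes called in the same alternative fits are not given here. The counts in this section therefore cannot be compared with a background. In the KO response upper-quartile factors gave 24 higher, length offsets 33 and 1, no filter 3 lower, a fit of its 4 libraries 38 and 2, the 5 libraries without unrelated reads 41 and 8, and a threshold of 0.01 gave 4 higher. In the WT response the 5 libraries without unrelated reads gave a median of 0.22. For KO over WT under DMSO both limma fits gave a median of 0.28, beside 0.048 and 0.073 over all tested genes. For KO over WT under Nutlin-3a, length offsets gave 19 lower, no filter 22 and 16, the DESeq2 Wald test 16 lower, both limma fits 24 and 4 with a median of 0.11, the 5 libraries 30 higher and a threshold of 0.01 gave 8 higher. For the difference of the responses, length offsets and no filter gave 48 lower each, both limma fits 15, the 5 libraries 1 and 44, and a threshold of 0.01 gave 13. The cause of these moves was not tested. The log2 ratio of the summed share was 0.11 for the KO response and 0.0793 on TMM-scaled totals, and 0.28 for KO over WT under DMSO, with 0.220 on TMM-scaled totals and 0.257 as a share of RPKM. No scaling moved the median of all genes by as much as 0.1.

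Leaving out 1 library gave 2 to 38 higher and 0 to 2 lower in the KO response (median 0.06 to 0.10), 48 to 69 higher in the WT response (median 0.23 to 0.38), 37 to 56 higher for KO over WT under DMSO, 8 to 32 higher and 7 to 27 lower for KO over WT under Nutlin-3a (median log2 fold change -0.0682 to 0.0794), and 0 to 1 higher and 12 to 62 lower for the difference (median -0.28 to -0.12). Ratios of the summed share ranged over 0.0896 to 0.134, 0.217 to 0.352, 0.277 to 0.290 and 0.0432 to 0.178 for the 4 comparisons. With the replicate number as a block, the counts were 13 and 0, 58 and 1, 50 and 3, 14 and 10, and 0 and 26. Correlations of the deviations of same-numbered libraries ran between -0.0226 and 0.232, the highest for WT DMSO with KO Nutlin-3a. The replicate 2 libraries of those groups both held reads of PIGR (123 and 137) and CEACAM5 (91 and 89). Every other library held at most 11 reads of either gene. Whether those 2 libraries share a source was not tested. Of single named values, 2204 kept direction and side of the threshold under an alternative, 140 lost the call, 110 gained it, 81 uncalled values changed sign and no called value did. These counts of named values include the fit of 5 libraries. Each group has 2 libraries, most differences here are under 1.5-fold, and RPL21 is limited by its depth.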
